A study of Mus musculus with 6 samples.

Results

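The 10 cathepsin genes described here are the lysosomal proteases Ctsa, Ctsb, Ctsc, Ctsd, Ctsh, Ctsk, Ctsl, Ctss and Ctsz and the cytotoxic-cell protease Ctsw. They were chosen by name, 10 of the 23930 genes of the table. Their transcripts were read in CD31-positive cells that had been sorted out of LLC tumours, grown for 2 weeks under the skin of C57/Bl6 mice from a mouse lung cancer line (Lewis lung carcinoma). In the control group (replicates 1, 2 and 3) the injected LLC cells were controls, and in the other group (replicates 4, 5 and 6) they overexpressed BMP9, a bone morphogenetic protein that acts on endothelial cells. The overexpression was thus in the injected cells and not in the sorted ones. The sources used here do not give the vector, the age and sex of the mice, or whether each library came from its own animal. The p-values therefore cover the spread among these 6 libraries alone, which may be technical.

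Cathepsins are made as inactive precursors, most of them carried to the lysosome by mannose 6-phosphate receptors and activated there by cleavage at acid pH. Most are cysteine proteases of the papain family, whereas cathepsin D is an aspartic protease and cathepsin A a serine carboxypeptidase. Macrophages hold large amounts of them for breaking down engulfed material and for cutting the invariant chain of MHC class II, and cathepsin W is known from NK cells and cytotoxic T cells.

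The libraries came from an amplicon panel that reads 1 short segment per gene. Levels are in RPM, a gene's reads relative to all reads of that library. Since amplicons differ in yield, levels of different genes are not compared. A library held between 1321762 and 28380957 reads, the deepest being BMP9 replicate 6. BMP9 replicate 4 carries the same run time stamp as all control libraries, and BMP9 replicates 5 and 6 carry a later one. Pecam1, the gene of CD31, averaged 448 ± 84.3 RPM in control and 303 ± 53.5 RPM under BMP9 overexpression (SD, n = 3 each). It did not pass the test (log2 fold change -0.56, limma adjusted p = 0.118). However, 8 of 11 other endothelial markers stayed below the level needed for a test. All 11 summed to 22.7 to 58.3 RPM in control and 29.9 to 52.8 RPM under BMP9 overexpression. Of the 3 tested endothelial markers, the VEGF receptor gene Flt1 was called higher (5.36 and 20.5 RPM on average in control and BMP9 libraries), its relative Kdr lower (11.5 and 3.59 RPM), and Cdh5, the cadherin of endothelial junctions, did not pass (9.81 and 6.15 RPM). Flt1 reached the level for a test only with the BMP9 libraries, and Kdr through the control libraries alone. Both calls were thus favoured by the filter. Robo4, Tek and Tie1, receptors of endothelial cells, were low in both groups, at 1.71, 0.471 and 2.41 RPM in control and at 0.106, 0.42 and 0.321 RPM under BMP9 overexpression. The 19 macrophage and monocyte markers summed to 5165 to 7859 RPM in control and 20257 to 26580 RPM under BMP9 overexpression, and the 19 T and NK cell markers to 10197 to 10368 RPM and 1088 to 1972 RPM. All 17 tested macrophage and monocyte markers were called higher and all 19 T and NK cell markers lower, against 12.7% and 22.5% of all tested genes. Among the former, Cd163 reached the level for a test through the BMP9 libraries alone. The 2 lists thus differed between the same groups as the cathepsins, in opposite directions, and their part in the results below was not tested. The summed markers of platelets were at 37.1 to 72.4 RPM in control and at 585 to 808 RPM under BMP9 overexpression, those of neutrophils at 25.3 to 45.0 and 217 to 311 RPM, those of osteoclasts at 104 to 248 and 285 to 470.1 RPM, and genes that respond to tissue dissociation at 4391 to 5469 and 6083 to 8224 RPM. The platelet sum was mostly the 1 gene Pf4, which averaged 49.1 RPM in control and 619 RPM under BMP9 overexpression. The platelet markers Gp1bb, Gp6 and Gp9 stayed at or below 0.218 RPM in every library. Likewise, the neutrophil markers Ly6g and Camp stayed at or below 0.907 RPM in every library. The sums overlapped between the groups for markers of mast cells (340.5 to 677 and 623 to 997 RPM), dendritic cells (437 to 579 and 381 to 621 RPM), B cells (49.2 to 80.0 and 66.6 to 112 RPM) and fibroblasts and epithelial tumour cells (18.9 to 46.5 and 28.7 to 41.5 RPM). Single markers in these lists were called all the same, 4 of 8 of mast cells higher and 2 of 8 of dendritic cells lower. Called higher were also 1 of 5 B cell markers and 2 of 4 tested fibroblast and epithelial markers. Without control replicate 2 only 1 mast cell marker was called higher, and without control replicate 1 no dendritic cell marker was called. Fcer1a, Krt18 and Col1a1 reached the level for a test only with the BMP9 libraries. In bulk samples, fewer cells of a type and less RNA per cell cannot be told apart.

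Many lysosomal genes are known to carry, near their start, the letters that the transcription factor TFEB recognises (the CLEAR element, whose core holds TCACGTGA). RefSeq promoters (build GRCm38.p6, 250 bases before to 50 after the start) matched 7 of the 10 members, all but Ctsb, Ctsh and Ctsw. These 7 members had 8 windows, since Ctsa had 2, and a member was counted if any of its windows held the letters. On either strand, CACGTG stood in the windows of 3 of these 7 members and in 7.15% of all 32851 windows. The Ctsa window at the annotated gene start (chr2:164832622-164832921) held none, and both Ctsa matches lie in its other window. The longer TCACGTGA, which contains CACGTG and reads the same on both strands, stood in 2 of 7 and in 0.974% of all. The matches with their flanks are shown because they are what windows of Ctsa, Ctsd and Ctsl share, with CACGTG in capitals and each on the strand of its gene.
Ctsa, chr2:164833749-164833778, plus strand, match 12 bases before the start: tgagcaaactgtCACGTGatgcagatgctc
Ctsa, chr2:164833766-164833795, plus strand, match at base 6 after the start: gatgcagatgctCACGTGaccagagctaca
Ctsd, chr7:142387908-142387937, minus strand, match 98 bases before the start: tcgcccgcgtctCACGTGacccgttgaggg
Ctsd, chr7:142388055-142388077, minus strand, match 245 bases before the start: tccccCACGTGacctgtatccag
Ctsl, chr13:64370739-64370768, minus strand, match 236 bases before the start: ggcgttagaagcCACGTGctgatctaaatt

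Both Ctsa matches and the nearer Ctsd match hold TCACGTGA. They lie within the spans of these genes in GENCODE M21, downstream of the annotated 5′ ends, as does the Ctsl match. GAGGAAGT, letters of the kind bound by the macrophage factor PU.1, stood on either strand in the windows of 2 members, Ctsc and Ctss, and in 3.20% of all windows. The 150 bases before the start used for the windows of Ctss and of Ctsl, the cysteine cathepsins of the invariant chain, are shown for comparison. They hold no CACGTG. The Ctsl stretch lies inside the gene, which reaches to base 64370890 on the minus strand, so it is not sequence upstream of the annotated gene.
Ctss, chr3:95526636-95526785, plus strand: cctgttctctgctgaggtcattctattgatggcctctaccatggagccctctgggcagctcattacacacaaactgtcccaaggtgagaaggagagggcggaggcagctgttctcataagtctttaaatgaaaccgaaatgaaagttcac
Ctsl, chr13:64370521-64370670, minus strand: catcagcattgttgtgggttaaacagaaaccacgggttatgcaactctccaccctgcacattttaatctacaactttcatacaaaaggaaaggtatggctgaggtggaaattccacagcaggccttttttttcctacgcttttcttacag

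The cathepsins did not move as a block in BMP9 overexpression libraries. Of 10 members 9 were abundant enough for a test, and 5 of them rose (Ctsl, Ctss, Ctsb, Ctsc and Ctsa), 1 fell (Ctsw) and 3 did not pass (Ctsd, Ctsz and Ctsh). The test was limma on log2(RPM + 1) with a Benjamini-Hochberg adjusted p of 0.05 over all 9460 genes tested, of which 12.7% were called higher and 22.5% lower, 35.2% in all. Groups did not overlap for 7 of the 9 tested members, against 48.1% of all tested genes. The median log2 fold change (BMP9 overexpression minus control) was 1.51 over the 9 members and -0.24 over all tested genes. With TMM scaling the latter was 0.03, so fold changes on the deposited scale are to be read against that shift. Members called were 6 higher and 1 lower with TMM factors (17.7% and 13.9% of all tested genes, 31.6% in all). With the single BMP9 library of the earlier run time stamp against the controls they were 5 higher and 1 lower (9.33% and 18.3%, 27.7% in all). The spread in that fit comes from the controls alone, so it says nothing about the spread among BMP9 libraries.

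**Figure D1:**
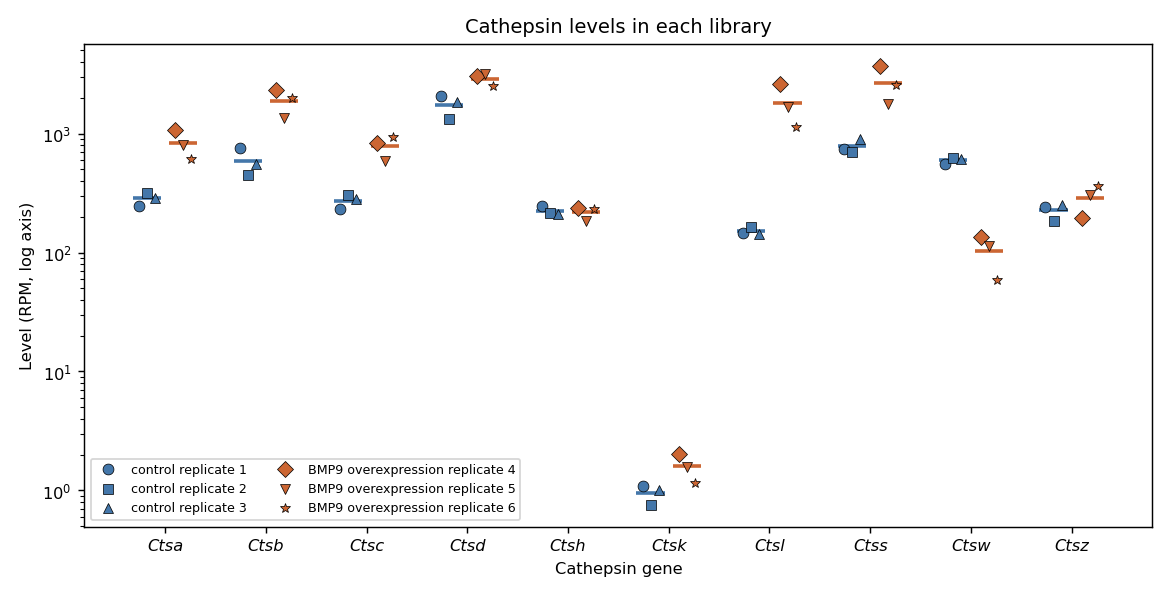
Level of each of the 10 cathepsin genes in RPM (log axis) in each library, with control replicates 1 to 3 in blue, BMP9 overexpression replicates 4 to 6 in orange and group means as bars. Ctsl lies at 145 to 163 RPM in control and 1137 to 2595 RPM under BMP9 overexpression, Ctsw lies lower in BMP9 libraries, and the groups overlap for Ctsh and Ctsz.

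Ctsl showed the largest difference of the family. It encodes cathepsin L (chromosome 13, 64359337 to 64370890, mm10), an endopeptidase of lysosomes. It was at 145, 163 and 145 RPM in control replicates 1, 2 and 3 and at 2595, 1680.2 and 1137 RPM in BMP9 replicates 4, 5 and 6. The control libraries lay close together, the BMP9 libraries were spread 2.28-fold, and the lowest BMP9 library was still 6.96-fold above the highest control. The log2 fold change was 3.49 (SE 0.30, 95% interval 2.85 to 4.14, limma adjusted p = 3.35e-06), which put Ctsl 34th from the top among all 9460 tested genes. In the earlier run time stamp alone it was 4.10.

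Ctss encodes cathepsin S (chromosome 3, 95526786 to 95556403), which cuts the invariant chain in antigen-presenting cells and stays active at neutral pH. Control libraries held 742, 701 and 903 RPM and BMP9 libraries 3703, 1772 and 2564 RPM. All BMP9 libraries were above all controls, and replicate 4 was the highest. On the log2 scale Ctss rose by 1.72 (SE 0.31, limma adjusted p = 0.000661), and 2.25 in the earlier run time stamp alone.

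Ctsb encodes cathepsin B (chromosome 14, 63122462 to 63145923), a lysosomal peptidase that can also trim dipeptides from the end of its substrates. It was at 759, 448 and 552 RPM in control and at 2314, 1363 and 2004 RPM under BMP9 overexpression, without overlap. Its spread was similar in both groups, with a coefficient of variation of 27.0% in control and 25.6% in BMP9 libraries. Ctsb rose by 1.69 on the log2 scale (SE 0.30, limma adjusted p = 0.000616).

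Ctsc encodes cathepsin C or dipeptidyl peptidase I (chromosome 7, 88278085 to 88310888), which activates the serine proteases of granules, granzymes among them, by removing a dipeptide. Control libraries held 232, 303 and 281 RPM and BMP9 libraries 835, 591 and 936 RPM. Replicate 6 was the highest here, and the groups did not overlap. Ctsc rose by 1.51 on the log2 scale (SE 0.27, limma adjusted p = 0.000631).

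Ctsa encodes cathepsin A, or protective protein (chromosome 2, 164832873 to 164841032), a carboxypeptidase that forms a complex with beta-galactosidase and neuraminidase 1 and stabilises them. It went from 247, 319 and 290.0 RPM in control to 1081, 798 and 609.5 RPM under BMP9 overexpression. The lowest BMP9 library was 1.91-fold above the highest control. On the log2 scale Ctsa rose by 1.51 (SE 0.28, limma adjusted p = 0.000807).

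Ctsw was the member that fell. It encodes cathepsin W, or lymphopain (chromosome 19, 5465043 to 5468507). Control libraries held 558, 623 and 616 RPM and BMP9 libraries 136, 113 and 58.5 RPM. The lowest control was 4.09-fold above the highest BMP9 library, and replicate 6 was the lowest. The log2 fold change was -2.62 (SE 0.31, limma adjusted p = 2.24e-05), the 168th most negative of all tested genes, and -2.13 in the earlier run time stamp alone.

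Ctsd, Ctsz and Ctsh did not pass the test. Ctsd encodes cathepsin D (chromosome 7, 142375911 to 142388038), the main aspartic protease of lysosomes. It was at 2059.8, 1322 and 1849 RPM in control and at 3029, 3169.9 and 2505 RPM under BMP9 overexpression, without overlap. The log2 fold change was 0.75 (95% interval 0.13 to 1.38, limma adjusted p = 0.0586). The call depended on the scaling, since Ctsd passed as higher with TMM factors (1.04, limma adjusted p = 0.0148), with edgeR (adjusted p = 0.0169) and with DESeq2 (adjusted p = 0.0012) on recovered reads.

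Ctsz encodes cathepsin Z (chromosome 2, 174427493 to 174439039), a carboxypeptidase also called cathepsin X. It was at 243, 183 and 253 RPM in control and at 194, 303 and 364 RPM under BMP9 overexpression, and the groups overlapped because BMP9 replicate 4 lay among the controls. The log2 fold change was 0.31 (95% interval -0.30 to 0.92, limma adjusted p = 0.427), and -0.20 in the earlier run time stamp alone, which holds that replicate as its BMP9 library. Ctsh encodes cathepsin H (chromosome 9, 90054152 to 90076089), an aminopeptidase. It was at 247, 216 and 211 RPM in control and at 238, 184 and 231 RPM under BMP9 overexpression. The groups overlapped, with a log2 fold change of -0.05 (95% interval -0.59 to 0.49, limma adjusted p = 0.896) and of 0.23 with TMM scaling. On the deposited scale both intervals leave out a 2-fold change in either direction.

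Ctsk, which encodes the collagen-degrading cathepsin K of osteoclasts (chromosome 3, 95499256 to 95509362), lies beside Ctss and was near the limit of detection. It had 5, 1 and 2 reads in control replicates 1, 2 and 3 and 4, 7 and 33 reads in BMP9 replicates 4, 5 and 6, or 0.757 to 1.09 RPM and 1.16 to 2.03 RPM. Pooled over libraries, the level came to 1.01 RPM (8 reads of 7904976, exact Poisson 95% interval 0.437 to 1.99) in control and 1.27 RPM (44 reads of 34765122, 0.92 to 1.70) in BMP9 overexpression. The intervals overlap, but they cover counting error only, and 33 of the 44 BMP9 reads came from replicate 6. By library, the lowest BMP9 value was 1.07-fold above the highest control. Ctsk was below the level for the test, so whether it differed was not decided. Other osteoclast markers differed among themselves. Tnfrsf11a, the receptor RANK, averaged 74.9 RPM in control and 218 RPM under BMP9 overexpression (log2 fold change 1.55, limma adjusted p = 0.000745), and Ocstamp 3.96 and 22.5 RPM (2.32, limma adjusted p = 0.00032), and both were called higher. Ocstamp reached the level for a test only with the BMP9 libraries, so its rise was favoured by the filter. Acp5 (78.5 and 109.8 RPM) and Atp6v0d2 (15.7 and 13.5 RPM) did not pass, and Dcstamp (2.80 and 4.17 RPM), Calcr (0.167 and 0 RPM) and Oscar (0.603 and 0.0233 RPM) were too low for a test.

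**Figure D2:**
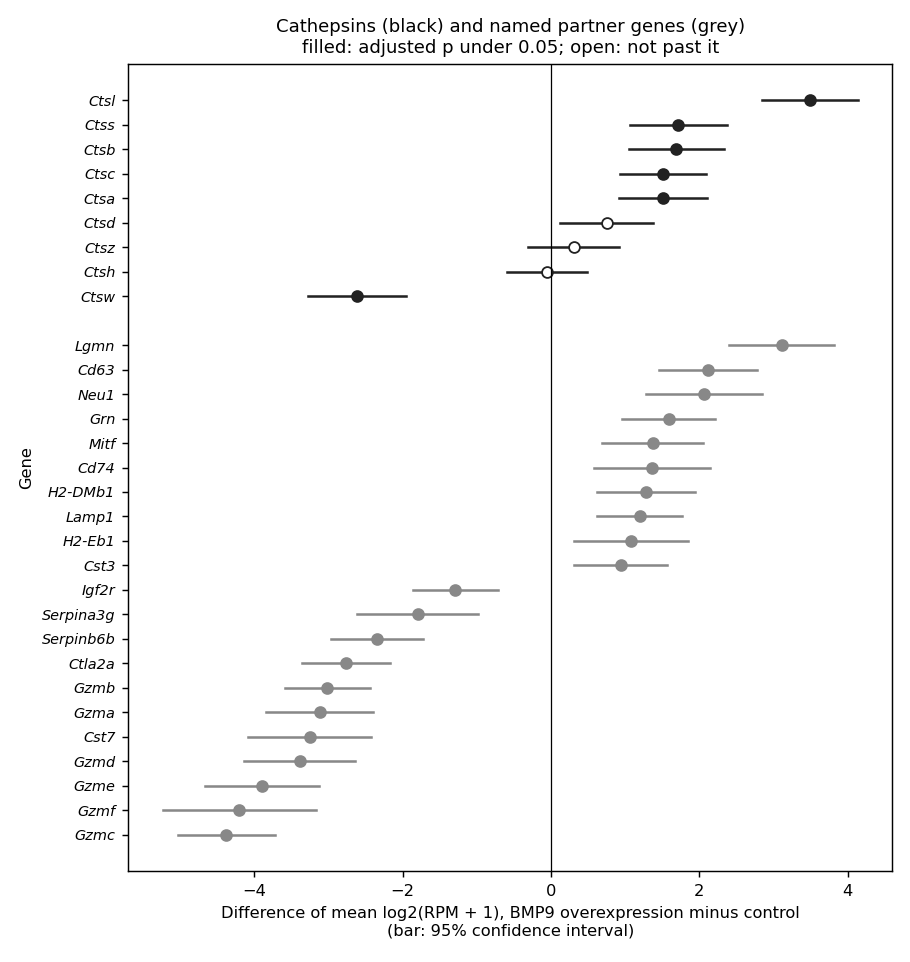
Log2 fold change (on the RPM + 1 scale) of BMP9 overexpression against control, for the 9 tested cathepsins (black) and for genes of their pathway (grey), with 95% confidence intervals from limma. Filled circles passed an adjusted p of 0.05, and Ctsl at 3.49 and Ctsw at -2.62 lie at the ends of the family.

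The family total and its make-up both differed between the groups. The 10 members summed to 5235, 4279 and 5099 RPM in control and to 14128, 9977 and 10410 RPM under BMP9 overexpression, 2.36-fold more on average. Amplicon yield differs between genes, so both the sum and the shares weight each gene by its yield. The share of 1 gene can be followed from library to library, but its size depends on the yields and levels of all members. Ctsl took 2.77% to 3.82% of the summed cathepsin RPM in control and 10.9% to 18.4% in BMP9 libraries. Ctsw took 10.7% to 14.6% in control and 0.562% to 1.14% in BMP9 libraries. The share of Ctsh was also lower, with 4.13% to 5.04% against 1.68% to 2.22%, although its level overlapped between the groups. The Ctsz share was 4.28% to 4.95% in control and 1.38% to 3.50% in BMP9 libraries, also without overlap. That of Ctss was higher by a narrow margin, with 14.2% to 17.7% against 17.8% to 26.2%. The shares of Ctsa, Ctsb, Ctsc and Ctsd overlapped between the groups. An exact permutation test of 3 against 3 libraries cannot go below p = 0.1, and none was run on shares.

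**Figure D3:**
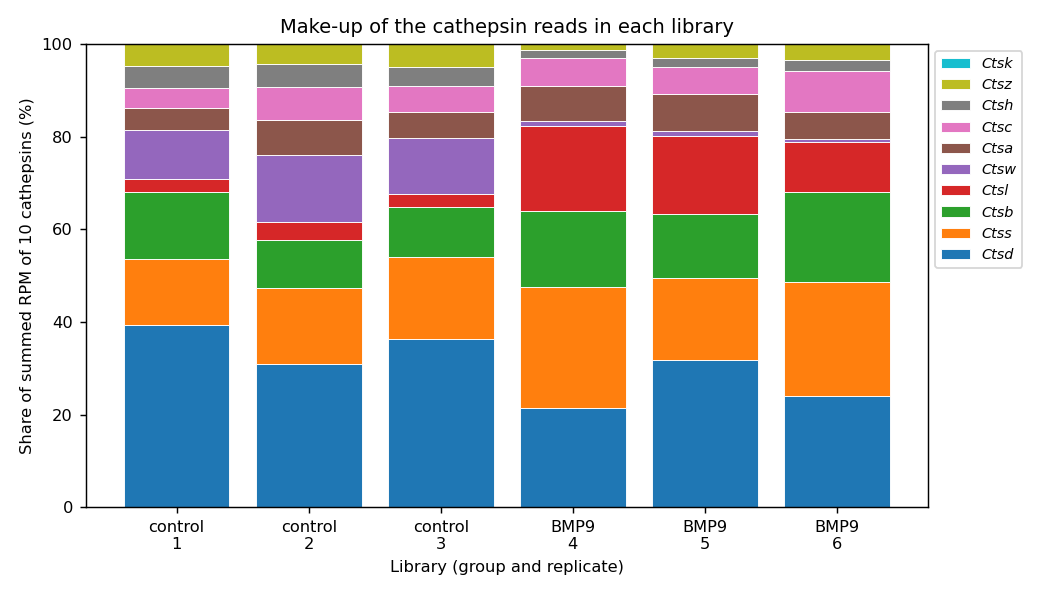
Share of each cathepsin gene in the summed RPM of the 10 genes, in percent, for each library. The Ctsl share is 2.77% to 3.82% in control and 10.9% to 18.4% in BMP9 libraries, while the Ctsw share is 10.7% to 14.6% and 0.562% to 1.14%.

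The coefficient of variation was larger in BMP9 libraries than in control for all members except Ctsb and Ctsd. For Ctsl it was 7.12% in control and 40.8% in BMP9 libraries, for Ctsw 5.93% and 38.9%, and for Ctss 13.6% and 36.2%. BMP9 replicate 4 was the highest BMP9 library for Ctsa, Ctsb, Ctsh, Ctsk, Ctsl, Ctss and Ctsw and the lowest for Ctsz. With 3 libraries a group these spreads are imprecise, and they were not tested.

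Set against macrophage and monocyte markers of the same library, Ctsl was higher and the other members were lower in BMP9 libraries on average, which no test here could pass. The measure was log2(RPM + 1) of a member minus the mean of log2(RPM + 1) over the 19 markers, a mean that was 2.05 higher in BMP9 libraries. For Ctsl this difference was 1.34, 1.71 and 1.19 in control and 3.24, 3.07 and 2.26 in BMP9 libraries, or 1.44 more on average. For Ctsb, Ctsc and Ctsa, which had risen in RPM, the group means differed by -0.36, -0.54 and -0.54, and the groups were apart by a narrow margin. Ctss was at 3.69 to 3.82 in control and 3.14 to 3.76 in BMP9 libraries, which overlapped, with means -0.33 apart. The value was -1.30 for Ctsd, -1.74 for Ctsz, -2.10 for Ctsh, -1.65 for Ctsk and -4.66 for Ctsw. The exact two-sided permutation p was 0.2 for Ctss and 0.1 for each of the other 9, the smallest that 3 against 3 libraries allow, or 0.111 after Benjamini-Hochberg adjustment over the 10 members, so none passes 0.05. Ctsl was the only member with a mean above that of control, also in the 10 alternatives tried, where the difference lay between 1.25 and 1.83.

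Set against the 19 T and NK cell markers, Ctsw overlapped between the groups. The difference was 1.03, 1.12 and 1.18 in control replicates 1, 2 and 3 and 1.10, 1.10 and 0.965 in BMP9 replicates 4, 5 and 6. The means were -0.05 apart (exact two-sided permutation p = 0.4), or 0.076 when the summed RPM of the markers was used. The mean log2 level of these markers was itself -2.56 apart, beside -2.62 for Ctsw.

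**Figure D4:**
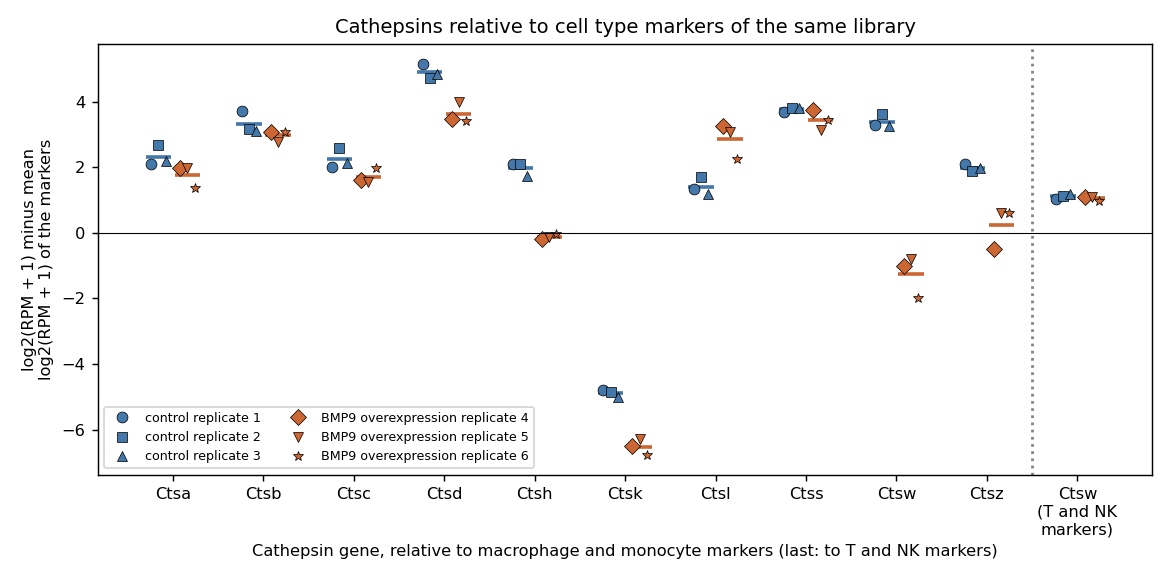
log2(RPM + 1) of each cathepsin minus the mean log2(RPM + 1) of 19 macrophage and monocyte markers in the same library, and at the right Ctsw minus the mean of 19 T and NK cell markers. Ctsl is at 1.19 to 1.71 in control (blue) and 2.26 to 3.24 in BMP9 libraries (orange), whereas Ctsw against T and NK cell markers is at 0.965 to 1.18 in all libraries.

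The genes closest in pattern were found by the root mean square difference of log2(RPM + 1), each gene centred on its own mean over the 6 libraries, among 6755 other tested genes averaging 20 RPM or more. For Ctsl the closest were Ccl12 (0.31), Gas6 (0.35) and Lgmn (0.35). For Ctss they were Nlrp3 (0.09), Rasgef1b (0.14) and Pld4 (0.15), and those of Ctsb included Wdfy3 (0.09) and Fam63a (0.14). For Ctsw they were Ncr1 (0.13), Cd8a (0.14) and Klrb1f (0.15), the last of a family with near-identical copies. The closest genes were Dusp16 for Ctsa (0.14), Lpcat2 for Ctsc (0.08), Ehbp1l1 for Ctsd (0.04) and Mpc2 for Ctsh (0.06). Those of Ctsk, with so few reads, and of Ctsz are not given. Since the 2 groups differ in many genes, closeness here mostly means a like difference between groups.

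None of the 13 remaining cathepsin genes of the table passed the test. Only 2 of them reached the level for it, Ctse, an aspartic cathepsin, with 7.42 to 12.9 RPM in control and 13.2 to 19.8 RPM under BMP9 overexpression (limma adjusted p = 0.163), and Ctso with 15.5 to 22.7 and 9.30 to 14.7 RPM (limma adjusted p = 0.0873). Without adjustment the limma p was 0.0364 for Ctso and 0.0827 for Ctse, and neither passed with edgeR or DESeq2. In 2 other alternatives 1 of the pair was called, as higher with quantile scaling and as lower without BMP9 replicate 4. Ctsg, the serine protease of neutrophils, was at 0.419 and 1.41 RPM on average, and 5 members (Ctsj, Ctsm, Ctsq, Ctsr and Cts7) had no reads in any library.

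Of 20 measured inhibitor genes 9 were tested, and 1 rose, 4 fell and 4 did not pass, where 12.7% of all tested genes were called higher and 22.5% lower. The share that rose is near that background. The median log2 fold change was -0.23 beside -0.24 over all tested genes, but it was -0.08 without control replicate 1, -0.13 without BMP9 replicate 5 and -0.38 without control replicate 3 or BMP9 replicate 6. Ctla2a, a propeptide-like inhibitor of cathepsin L first found in activated T cells, was at 557, 573 and 554 RPM in control and at 119, 67.4 and 67.6 RPM under BMP9 overexpression (log2 fold change -2.77, SE 0.28, limma adjusted p = 8.02e-06). Its relative Ctla2b was at 59.8 ± 13.8 and 69.5 ± 14.5 RPM (SD, n = 3 each, limma adjusted p = 0.589), and the 2 genes are similar in sequence, so how reads were split between them is uncertain. Cst7, the cystatin F of NK cells, T cells and some myeloid cells that inhibits cathepsin C, fell, with 43.6 to 101 RPM in the control libraries and 4.05 to 8.84 RPM in the BMP9 libraries (log2 fold change -3.25, SE 0.39). Ctsc and its inhibitor Cst7 thus lay on opposite sides, while both Ctsw and Cst7 were lower together with the T and NK cell markers. Serpinb6b (-2.35) and Serpina3g (-1.80), serpins of leukocytes, fell as well. The call of Serpina3g was lost without the filter on low levels (limma adjusted p = 0.0553).

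Cst3, the secreted cystatin C, was the inhibitor that rose. It was at 1668, 1745 and 2159 RPM in control and at 2979, 4342 and 3450 RPM under BMP9 overexpression (log2 fold change 0.94, SE 0.29, limma adjusted p = 0.0215). The call was lost with the stamp as a model term, where BMP9 replicate 4 alone carries the contrast (0.69, adjusted p = 0.168), with quantile scaling (0.67), without the filter on low levels and without control replicate 1 (0.87) or BMP9 replicate 5 (0.80) or 6 (0.96). Cstb, the cytosolic cystatin B, was at 545 ± 8.35 RPM in control and 861 ± 301 RPM under BMP9 overexpression (SD, n = 3 each) and did not pass (limma adjusted p = 0.145), with replicate 4 at 514 RPM below the controls.

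Genes that process cathepsins and deliver them to lysosomes were mixed. Of 19 tested, 8 rose, 3 fell and 8 did not pass, beside the same background of 12.7% and 22.5%. The median log2 fold change was 0.74, but 0.36 with a mean of at least 20 RPM required, 0.37 without control replicate 2 and 0.40 without control replicate 3. Without BMP9 replicate 6 the counts were 5 and 2, and without control replicate 1 they were 6 and 1. Lgmn, the asparaginyl endopeptidase legumain that cleaves precursors of cathepsins, was at 163, 192 and 99.5 RPM in control and at 2041, 995 and 1009 RPM under BMP9 overexpression (log2 fold change 3.11, SE 0.33, limma adjusted p = 1.2e-05). Cd63 (2.12) and Lamp1 (1.20), proteins of the lysosomal membrane, rose, as did Grn, the progranulin that acts in lysosomes (1.59), and Mitf, a transcription factor related to TFEB (1.37). With the stamp as a model term Lamp1 did not pass (0.88, adjusted p = 0.0562). Igf2r, the large mannose 6-phosphate receptor, fell from 268 ± 45.9 to 110 ± 22.1 RPM (SD, n = 3 each, log2 fold change -1.29, SE 0.27, limma adjusted p = 0.00188). M6pr, the small receptor, and Tfeb were chosen after their values were seen, and had log2 fold changes of -0.57 (limma adjusted p = 0.091) and 0.77 (limma adjusted p = 0.0387). The call of Tfeb was lost without any 1 of the 6 libraries (0.68 to 0.90) and with the stamp as a model term (0.93).

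Partners and substrates of single cathepsins were compared by list. Of the partners of cathepsin A, Neu1, the neuraminidase, rose, with 12.9 to 18.3 RPM in the control libraries, 47.4 and 49.4 RPM in BMP9 replicates 6 and 5 and 120.0 RPM in replicate 4 (log2 fold change 2.07, SE 0.37, limma adjusted p = 0.000591). Glb1, the beta-galactosidase, was at 84.4 ± 12.7 and 108 ± 15.3 RPM (SD, n = 3 each) and did not pass (limma adjusted p = 0.314). Of the list of the invariant chain, which cathepsins S and L cut, and the MHC class II chains, 3 of 6 rose and none fell. Over all tested genes 12.7% were called higher and 22.5% lower. Without control replicate 1 only H2-DMb1 of this list rose. Cd74, the invariant chain itself, was at 2508, 3288 and 5521 RPM in control and at 11698, 9647 and 6820 RPM under BMP9 overexpression (log2 fold change 1.36, SE 0.37, limma adjusted p = 0.00991), a call lost without control replicate 1 (1.10) or without the filter on low levels (adjusted p = 0.242). H2-DMb1 (1.28) and H2-Eb1 (1.08) rose and H2-Aa, H2-Ab1 and H2-DMa did not pass, and the call of H2-Eb1 was lost without control replicate 1 or 2 or BMP9 replicate 4 (0.69), with quantile scaling (adjusted p = 0.0614) and without the filter (adjusted p = 0.202).

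Of the proteases that cathepsin C activates, granzymes were lower while Ctsc was higher. Of 13 measured 8 were tested and 7 fell, all of them granzymes, with none higher. Over all tested genes 22.5% were called lower and 12.7% higher. Gzmd, Gzme, Gzmf and Gzmk reached the level for a test through the control libraries alone, so their falls were favoured by the filter. Without any 1 control library only 4 reached the level for a test, and 3 of these fell. Gzma and Gzmb are also among the T and NK cell markers. Gzmb fell from 1978, 1277 and 1384 RPM to 197, 201 and 165 RPM (log2 fold change -3.02, SE 0.27, limma adjusted p = 3.6e-06), and the log2 fold changes of Gzmc, Gzma, Gzmd, Gzme and Gzmf were -4.38, -3.11, -3.39, -3.90 and -4.20. Granzyme genes have near-identical copies, so which of them gave the reads is uncertain. The member that did not pass was Cma1, a mast cell chymase, with 79.0 ± 16.3 and 115 ± 36.8 RPM (SD, n = 3 each, limma adjusted p = 0.186). With TMM scaling, edgeR or DESeq2 all 8 tested were called, 7 lower and 1 higher, so Cma1 passed as higher there. With the stamp as a model term or no filter 1 of the list was also called higher. Elane, the neutrophil elastase, had no reads in control and 0.217 RPM under BMP9 overexpression, and Prtn3, proteinase 3 of neutrophils, was at 0 to 0.436 RPM and 2.95 to 3.24 RPM. Like Ctsg, both were too low for a test, and neutrophil markers were higher in sum in the same libraries.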

How the data were processed

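Total RNA of sorted cells was read with the Ion AmpliSeq Transcriptome mouse panel, per the labels' protocols. The authors deposited RPM, each library's reads scaled to a common total. Per the submitters' processing notes the genome build was mm10. Aligner, counter and filters were not given in the sources used here. Whole reads were recovered for 100% of nonzero values (within 0.05 reads), for count tests by edgeR 4.0.16 (3114 genes called) and DESeq2 1.42.0 (3317 genes).

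Groups and replicate numbers came from the titles. Limma 3.58.1 (R 4.3.3, trend) was fitted to log2(RPM + 1), with no covariate, for genes that reached 5 RPM in 3 or more libraries. The pseudocount understates changes of low genes. The procedure was tested on simulated data. RPM is relative, so a rise of abundant transcripts lowers the share of others, and reads are PCR copies without molecular identifiers. The alternatives were other pseudocounts, filters and scalings, the run time stamp, left-out libraries and the count tests.

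The members, and the 17 lists of 186 genes (4 not matched), were chosen with earlier results of these data known. Named were all members, the called genes of each pathway list (at most 6, by p), and the nearest genes in pattern, some of which are not reported here. Robo4, Tek, Tie1, Flt1, Kdr, the osteoclast markers, Ctsg, Elane, Prtn3 and genes that did not pass were chosen with their values in view. So were Camp, Col1a1, Fcer1a, Krt18 and Ly6g. Gene positions are those of GENCODE M21 (mm10). Amplicon positions were not used.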

Additional observations from a re-analysis of the deposited data

How the results depend on the processing

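In each of the 16 alternatives Ctsl, Ctss, Ctsb, Ctsc, Ctsa and Ctsw kept their direction and their side of the threshold. Ctsd passed in 3 of them (TMM, edgeR and DESeq2). The sign of Ctsh, which did not pass in any, turned with TMM (0.23), the run time stamp as a covariate or the earlier stamp alone (0.088 each), edgeR (0.21), DESeq2 (0.20) and 2 of the left-out libraries (control replicate 1 and BMP9 replicate 5), over which it ran from -0.12 to 0.065. That of Ctsz turned with the stamp as a covariate and with the earlier stamp alone (-0.20 each), settings in which BMP9 replicate 4 alone carries the contrast, and Ctsw relative to T and NK cell markers was 0.076 with summed markers. Over all genes tested, 3330 were called and 2130 were lower, with 1319 lower under TMM, and without single libraries the counts ran from 2011 to 3432 and from 1093 to 2308, lowest without control replicate 1 (1394 lower without control replicate 3). The number of higher delivery genes ran from 5 to 10 and of higher inhibitors from 0 to 2. The causes were not tested. No paired analysis was possible because the groups share no replicate numbers. Depth limited Ctsk, with 1 to 5 reads in a control library.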
